A study of Mus musculus with 6 samples.

Results

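The limb bud at E11.5 held a small class of blood-derived cells, which the deposited annotation calls lymphocytes in some libraries and immune cells in others. All cells with either label were taken, 158 of 26486 cells, of which 81 were labelled Lymphocytes (the Dup and C57BL/6 libraries) and 77 Immune cell (the Inv1 and G4 libraries). With the limit of over 2000 detected genes that the study applied, 151 of 24891 cells remained. Most of the T and B cell genes that could be read were at or near 0 in the class. Cd79b, Ighm, Ptprcap, Ltb, Lat, Il2rg, Gimap6 and the blood lineage factor Ikzf1 were above the other cells. The class was led by genes of tissue macrophages, and 100 of the 151 cells had unique molecular identifiers (UMIs, 1 per captured transcript) of 3 or more of 10 macrophage markers. The other 51 cells were a mixture that included 12 megakaryocyte-like cells and 16 cells with Cpa3, which encodes a carboxypeptidase of mast cells and their precursors.

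The cells came from 6 droplet libraries of embryonic mouse limb buds, 1 library per group: hindlimbs of homozygous Dup embryos and of C57BL/6 wild-type embryos (both labelled c57bl6.J), hindlimbs of homozygous Inv1 embryos and of G4 wild-type embryos, and forelimbs of Inv1 and of G4 wild-type embryos. Dup is a tandem duplication next to Fgf8 with the genes Lbx1, Btrc, Poll, Dpcd and Fbxw4 inside it, and Inv1 is an inversion at the same locus that disrupts Fbxw4. Dup was on a C57Bl6 and Inv1 on a G4 background, G4 being a hybrid of the 129sv and C57Bl6 strains. The mice came from edited embryonic stem cells aggregated with host embryos, and lines were kept with crosses to C57BL/6. Neither allele is restricted to a tissue, so the immune cells carry it as well. The sources used here do not say how many embryos or clones went into a library. With 1 library per group no test between groups was possible. Levels are CPM, the UMIs of a gene scaled to a common total, over the summed cells, and intervals are exact 95% intervals that cover counting error only.

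Macrophages of the early embryo arise from yolk sac progenitors, enter the tissues before birth and live there on signalling through Csf1r, the receptor for Csf1 and Il34. In the limb bud they are known for engulfing dying cells, for which they carry scavenger receptors, complement factors and a large lysosomal system. Mature T and B lymphocytes are made later in gestation in the thymus, fetal liver and bone marrow.

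The promoters of some genes that lead the class are given here. C1qb and C1qc, neighbours that encode chains of the complement factor C1q, are among the markers that defined the macrophage-like cells. Gp9, the gene of a platelet surface glycoprotein, is among the markers that defined the megakaryocyte-like cells. Pf4, a platelet chemokine gene, is in neither marker list and was highest in the megakaryocyte-like cells. The windows run from 150 bases before to 50 bases after the annotated start (RefSeq, GRCm38.p6). Capitals mark GAGGAA, a core bound by the myeloid factor PU.1, and AGATAA, a core bound by GATA factors, each searched on both strands (TTCCTC is GAGGAA on the other strand), and no match overlapped another.
C1qb (chr4:136886151-136886350, minus strand): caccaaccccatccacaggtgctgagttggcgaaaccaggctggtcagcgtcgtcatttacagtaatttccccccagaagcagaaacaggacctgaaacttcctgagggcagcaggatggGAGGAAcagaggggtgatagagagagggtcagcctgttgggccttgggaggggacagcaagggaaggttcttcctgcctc
C1qc (chr4:136892865-136893064, minus strand): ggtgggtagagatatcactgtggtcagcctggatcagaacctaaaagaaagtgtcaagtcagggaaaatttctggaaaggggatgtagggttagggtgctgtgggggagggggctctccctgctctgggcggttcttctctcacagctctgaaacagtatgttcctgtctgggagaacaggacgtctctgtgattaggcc
Pf4 (chr5:90772285-90772484, plus strand): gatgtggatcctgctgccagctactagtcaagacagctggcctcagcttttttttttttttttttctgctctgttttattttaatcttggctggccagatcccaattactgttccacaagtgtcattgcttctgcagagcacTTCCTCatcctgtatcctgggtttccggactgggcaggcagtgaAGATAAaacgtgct
Gp9 (chr6:87777920-87778119, plus strand): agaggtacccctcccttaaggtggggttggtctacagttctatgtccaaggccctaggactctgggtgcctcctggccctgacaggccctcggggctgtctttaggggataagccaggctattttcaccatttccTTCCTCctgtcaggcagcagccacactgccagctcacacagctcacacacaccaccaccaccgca
The C1qb, Pf4 and Gp9 windows held GAGGAA and the Pf4 window also AGATAA, while the C1qc window held neither. Among the 30 genes that most set the class apart, 23 were higher in macrophage-like than in megakaryocyte-like cells, and 16 of them had 20 promoters in the table, 11 with GAGGAA and 2 with AGATAA. For the 5 genes higher in megakaryocyte-like cells, 3 of 6 promoters held GAGGAA and 1 held AGATAA. Stfa3 and Camp had 0 UMIs in both kinds of cell and were left out. Of the 23, S100a8, S100a9, Stfa1 and Lyz2 were highest in immune cells of neither kind and without Cpa3. Rac2 of the 23 and Srgn of the 5 were highest in the cells with Cpa3. Of all 32851 promoters, 20.0% held GAGGAA and 6.92% AGATAA.

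Immune cells made up 1.12% of the cells of the Dup hindlimb (52 of 4648, interval 0.837 to 1.46%), against 1.29% of the C57BL/6 hindlimb (29 of 2249, 0.865 to 1.85%). They were 0.454% of the Inv1 hindlimb (27 of 5947) and 0.339% of the G4 hindlimb (19 of 5606), and 0.299% of the Inv1 forelimb (11 of 3675) and 0.470% of the G4 forelimb (13 of 2766). The ratio of shares was 0.868 (interval 0.541 to 1.42) for Dup over C57BL/6, 1.34 (0.718 to 2.55) for Inv1 over G4 in hindlimbs and 0.637 (0.258 to 1.54) in forelimbs, so each interval held a ratio of 1. Median depth was 8661 to 13533 UMIs per immune cell over the libraries, and 6711.5 to 10094.5 UMIs per cell of the rest. Among cells with over 3000 genes the Dup ratio was 1.86 (0.997 to 3.55). With the class set by 3 or more of the 6 given markers, in place of the label, it was 0.567 (0.335 to 0.965). Of the labelled Inv1 and G4 hindlimb cells, 48 also had a label in a second annotation that the authors made, and 47 were immune there and 1 mesenchyme. No barcode of an immune cell occurred in more than 1 library, while 92 barcodes of all cells did.

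The 6 markers given for the class were present in every library. C1qa (ENSMUSG00000036887), which encodes a C1q chain, had 277 CPM (interval 239 to 319) in the Dup and 503 CPM (442 to 570) in the C57BL/6 immune cells, 801 CPM in the Inv1 and 690 CPM in the G4 hindlimb, and 326 CPM in the Inv1 and 1541 CPM in the G4 forelimb. All other cells of the same libraries had 0.123 to 0.857 CPM of C1qa. C1qb (ENSMUSG00000036905) was about 2 times higher than C1qa throughout, with 546 CPM in Dup and 1095 CPM in C57BL/6, 1533 CPM in Inv1 and 1478 CPM in G4 hindlimbs, and 738 CPM in Inv1 and 2836 CPM in G4 forelimbs. The G4 forelimb, where every immune cell was macrophage-like, stood highest for both genes. Csf1r (ENSMUSG00000024621) had 168 CPM in Dup and 249 CPM in C57BL/6, 332 CPM in Inv1 and 391.8 CPM in G4 hindlimbs, and 221 CPM in Inv1 and 948 CPM in G4 forelimbs, against at most 0.415 CPM in the other cells. Tyrobp (ENSMUSG00000030579) and Fcer1g (ENSMUSG00000058715), adaptors that carry the signal of many myeloid receptors, ranged over the libraries from 623 to 1398 CPM and from 714 to 1319 CPM. Fcer1g was shared by the other immune cells, at 1122 CPM in the megakaryocyte-like and 632 CPM in the Cpa3 cells. Tyrobp was at 847 CPM in the Cpa3 cells but at 4.04 CPM in the megakaryocyte-like cells.

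**Figure D1:**
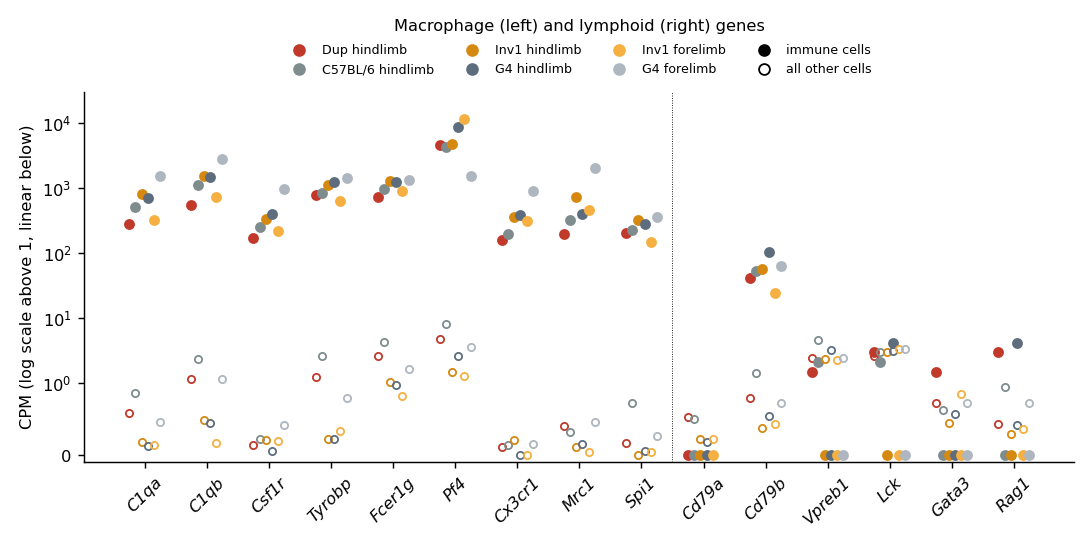
Levels of 9 myeloid genes (left of the dotted line) and 6 lymphoid genes (right) in CPM, on a log scale above 1 and a linear one below, with a filled point for the immune cells and an open point for all other cells of each library. The myeloid genes sit far above the other cells (C1qa at 277 to 1541 CPM against 0.123 to 0.857 CPM), while Cd79b is the lymphoid gene above them in every library. A gene without any UMI in a whole library has no point there.

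The lymphocyte genes were mixed. Cd79a, the signalling chain of the B cell receptor, had 0 UMIs in the immune cells. Cd3g, a chain of the T cell receptor complex, had a value in the Dup library only, where 1 Cpa3 cell held all 8 UMIs. Lck, the T cell kinase, had 4 UMIs in 4 of 151 cells (2.65%, interval 0.726 to 6.64%), with 2.79% of mesenchyme and 14.1% of endothelial cells beside it. Vpreb1, Gata3 and Rag1, of the pre-B cell receptor, of T cells and of receptor gene rearrangement, had at most 3 UMIs each. Cd79b, the partner chain of Cd79a, had UMIs in 66 of 151 cells (43.7%), against 0.466% of mesenchyme and 7.57% of endothelial cells, with 19.2, 0.216 and 2.17% after thinning to 4000 UMIs per cell. It had 41.2 CPM in Dup and 52.0 CPM in C57BL/6, 56.3 CPM in Inv1 and 102 CPM in G4 hindlimbs, and 24.0 CPM in Inv1 and 63.2 CPM in G4 forelimbs. Ighm, the immunoglobulin heavy chain constant gene (chosen after its values were seen), had 224 UMIs in 82 cells, 190 of them in macrophage-like cells, and 108 CPM against 0.121 CPM in the other cells. Ptprcap, a partner of the receptor Ptprc (also chosen after its values were seen), had 113 UMIs in 29 cells, with 54.4 against 0.0666 CPM, and 61 of these UMIs lay in the Cpa3 cells. Further lymphoid genes were read with these. Ltb had 43 UMIs in 15 cells (20.7 against 0.262 CPM), Il2rg 33 in 18 (15.9 against 0.391 CPM) and Gimap6 36 in 18 (17.3 against 3.18 CPM). Lat had 106 UMIs in 19 cells (51.0 against 0.546 CPM), with 97 UMIs in megakaryocyte-like cells. Cd247, Cd27, Gimap4, Eomes, Lax1, Bcl11b and Tnfrsf13c had at most 10 UMIs each, and Fcmr had 0. Ikzf1, a factor of many blood lineages, lymphoid ones among them, had UMIs in 76 of 151 cells (50.3%), against 0.0967% of mesenchyme and 0 of 185 endothelial cells. It had 69.2 CPM in Dup and 52.0 CPM in C57BL/6, 118.6 CPM in Inv1 and 57.1 CPM in G4 hindlimbs, and 158 CPM in Inv1 and 94.8 CPM in G4 forelimbs, with at most 0.316 CPM in the other cells. Bcl11a and Ebf1, factors that also act outside blood, had UMIs in 27.8% and 23.8% of immune cells but in 67.8% and 66.8% of mesenchyme, and were lower in the class than in the other cells of every library. Cd3d, Cd3e, Trbc2, Ms4a1, Pax5 and Il7r were among 46 listed genes without a row in the tables and were not analysed here, so the label was checked on few lymphoid genes.

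Counted per cell, the markers divided the class. Of the 10 macrophage markers (C1qa, C1qb, C1qc, Csf1r, Adgre1, Fcgr1, Cx3cr1, Mrc1, Cd68 and Aif1), 44 cells had all 10, 78 had 8 or more, 30 had none and 15 had 1. Only 6 cells had 2 markers and 7 had 3 or 4, which are the cells next to the limit of 3. In mesenchyme 1 of 22760 cells reached 3 markers, and 0 of 185 endothelial and 0 of 1089 muscle cells did, which allows shares of up to 1.97% and 0.338%. When each cell was thinned to 4000 UMIs, 59.6% of immune cells and 0% of each of these other classes reached 3. A further 10 cells outside the class, 8 of them mesenchyme, had 3 or more of the 6 given markers.

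**Figure D2:**
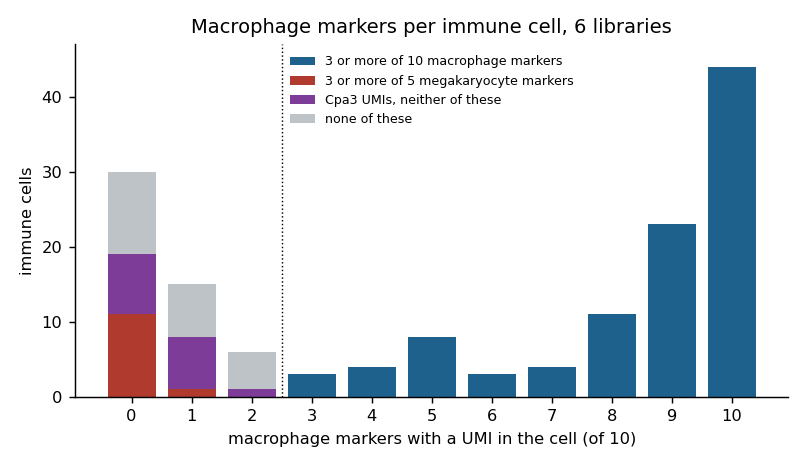
Number of immune cells (6 libraries together) by how many of the 10 macrophage markers had a UMI in the cell, coloured by group. Cells pile up at 0 and at 10 markers (30 and 44 cells), and the dotted line is the limit of 3 markers.

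Macrophage-like cells were 28 of 52 immune cells of the Dup hindlimb (53.8%, interval 39.5 to 67.8%) and 20 of 29 of the C57BL/6 hindlimb (69.0%, 49.2 to 84.7%). They were 19 of 27 in the Inv1 and 14 of 19 in the G4 hindlimb, and 6 of 11 in the Inv1 and 13 of 13 in the G4 forelimb. As shares of all cells their ratio was 0.677 (interval 0.368 to 1.27) for Dup over C57BL/6 and 1.28 (0.608 to 2.76) for Inv1 over G4 in hindlimbs. In forelimbs it was 0.347 (0.108 to 0.980), from 6 cells in Inv1 and 13 in G4. That interval ended below 1, but with 1 library each the allele and other differences between these libraries cannot be told apart.

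**Figure D3:**
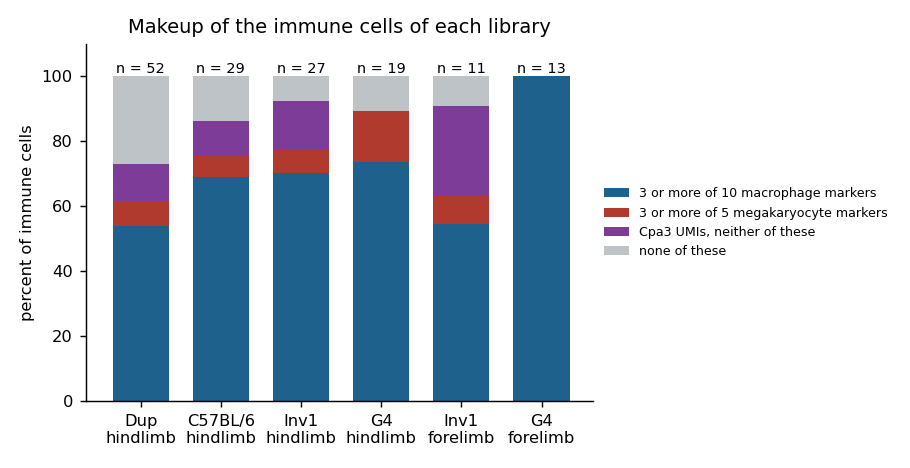
Makeup of the immune cells of each library in percent, with the number of cells above each bar. The G4 forelimb bar is macrophage-like throughout (13 cells), while in the Inv1 forelimb 6 of 11 cells were. Cpa3 had no UMI in any cell of the G4 libraries, so the Cpa3 share could not be measured there.

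The megakaryocyte-like cells, with 3 or more markers of their list, among them Itga2b, Gp9, Gp1bb and Ppbp, numbered 4 in the Dup and 2 in the C57BL/6 hindlimb, 2 in the Inv1 and 3 in the G4 hindlimb, and 1 in the Inv1 and 0 in the G4 forelimb. Outside the Dup and C57BL/6 libraries Gp1bb had no value, and the call there rested on Itga2b, Gp9 and Ppbp. These 12 cells held 92.6% of the 11440 Pf4 UMIs of the class, with 39 to 2315 UMIs per cell and a median of 676. Macrophage-like cells had Pf4 in 77 of 100 cells, with a median of 4 UMIs. The class level of Pf4 followed the few megakaryocyte-like cells: it was 4591 CPM in Dup and 4238 CPM in C57BL/6, 4782 CPM in Inv1 and 8576 CPM in G4 hindlimbs, and 11411 CPM in Inv1 and 1501 CPM in G4 forelimbs. Within macrophage-like cells Pf4 was 247 CPM in Dup and 213 CPM in C57BL/6, 1261 CPM in Inv1 and 775 CPM in G4 hindlimbs, and 859 CPM in Inv1 and 1501 CPM in G4 forelimbs. Genes of the platelet programme accompanied Pf4, among them Ppbp at 5402 CPM, Clec1b at 1627 CPM, Treml1 at 1421 CPM and Itgb3 at 820 CPM in these cells. As background, 10.3% of endothelial cells and 2.58% of mesenchyme had a Pf4 UMI, at median depths of 13914 and 8362.5 UMIs, and the Cpa3 cells had none.

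The 16 cells with Cpa3 and neither other profile were found in the Dup (6), C57BL/6 (3) and Inv1 hindlimbs (4) and the Inv1 forelimb (3). They led the class in Ifitm1, an interferon-induced membrane protein gene, at 6608 CPM and 1506 of the 1662 UMIs of the class. They also led in Gata2 (a stem and mast cell factor, 294 CPM) and in Kit (the receptor of stem cell factor, 167 CPM). Mpo, myeloperoxidase, had a value in the Dup and C57BL/6 libraries only. The Cpa3 cells held 162 of its 194 UMIs, or 711 CPM with the Inv1 cells, which have no Mpo value, counted in the total. The other mast cell markers had no row, so these cells are called by Cpa3 and not by a cell type. No G4 immune cell had more than 2 UMIs of Ifitm1, while the highest Cpa3 cells had 142 UMIs in the Inv1 hindlimb, 319 in the Inv1 forelimb, 212 in the Dup and 166 in the C57BL/6 hindlimb. Of the 23 cells left, 1 Dup cell held 1248 UMIs of S100a8 and 1567 of S100a9, the calprotectin genes of neutrophils, with Stfa1 and Camp. Of the 23, 9 had Actc1 and 6 had Myog, genes of muscle. Lymphoid genes were also read in the 23 cells. Ptprcap was at 146 CPM in 9 cells, Ighm at 109 CPM in 10, Ltb at 92.9 CPM in 6 and Gimap6 at 69.7 CPM in 8. Il2rg had 2 UMIs and Lat 1 UMI there. These sets of cells may overlap.

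Mesenchymal transcripts were present in the class. UMIs of 4 or more of 7 mesenchyme markers (Prrx1, Prrx2, Twist1, Msx1, Col1a1, Col1a2, Col3a1) were found in 13 of 52 Dup and 9 of 29 C57BL/6 cells, 2 of 27 Inv1 and 1 of 19 G4 hindlimb cells, and 3 of 11 Inv1 and 0 of 13 G4 forelimb cells, 28 in all or 18.5%. In endothelial cells the share was 8.65% and in mesenchyme 71.6%. The summed level of the 7 markers was 454 CPM in the Dup and 574 CPM in the C57BL/6 immune cells, 222 CPM in the Inv1 and 49.0 CPM in the G4 hindlimb, and 192 CPM in the Inv1 and 86.9 CPM in the G4 forelimb, against 1619 to 2244 CPM in mesenchyme. Median depth was 12264 UMIs in the 28 cells and 11318 UMIs in the others. Hbb-y, an embryonic globin gene of red cells, had 1457 CPM in Dup and 1970 CPM in C57BL/6 immune cells, with 1382 and 1985 CPM in the other cells of these libraries. In hindlimbs it had 510 CPM in Inv1 and 371 CPM in G4 immune cells, with 577 and 517 CPM in the other cells, and in forelimbs 240 CPM in Inv1 and 790 CPM in G4 immune cells, with 433 and 701 CPM in the other cells. The part of free RNA and of doublets in these values was not tested.

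Over the rest of the cells, 730 of 6089 genes were 4-fold or more higher in the class (12.0%), and 464 of them in every library where they had a value. The class was clustered on these genes, so this describes it and tests nothing. All 10 macrophage markers were among them, all 14 measured myeloid receptors and adaptors, and all 7 measured complement genes, with median log2 ratios of 5.93, 4.69 and 5.03, against -0.06 over all genes. Trem2, a lipid-sensing receptor, and C3ar1, the receptor of a complement fragment, were examples, with at most 0.340 CPM outside the class. Of 16 lysosomal genes 12 were called, with a median of 3.00, and of 14 listed myeloid transcription factors 8 of the 11 measured were, led by Spi1, which encodes PU.1. Spi1 had 206 CPM in Dup and 222 CPM in C57BL/6, 317 CPM in Inv1 and 282 CPM in G4 hindlimbs, and 149 CPM in Inv1 and 356 CPM in G4 forelimbs.

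Other groups were called in part or not at all. All 5 measured genes of antigen presentation were called, among them B2m, H2-K1 and H2-D1 of MHC class I, with B2m at 277 to 774 CPM. H2-Ab1, a chain of MHC class II itself, was at 0 to 8.89 CPM over the libraries and was too low to be measured by the rule. None of 8 proliferation genes was called, with a median log2 ratio of -0.24. Yet 91 of 100 macrophage-like cells had UMIs of 3 or more of these genes, and after thinning 74.0% of macrophage-like and 63.2% of mesenchymal cells did, with G4 forelimb macrophage-like cells lowest, at 53.8%. Of 10 measured genes that also mark microglia 8 were called, P2ry12 and Gpr34 among them. The called genes also included Csf1r and Cx3cr1 of the macrophage list. Tmem119 and Olfml3 were measured and not called, and Sall1, a factor of mature microglia, stayed at or under 7.90 CPM. The endothelial markers, such as Cd93 and Kdr, stayed under the 20 CPM that the rule asks for, and Sox10 of neural crest and Krt19 of epithelium had 0 UMIs in the class.

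By the 30 highest ratios the class was led by Pf4, S100a8, C1qb, Fcer1g, Tyrobp, Stfa1, C1qc, C1qa, Cd52 and Mrc1. They were followed by Lst1, S100a9, Lyz2, Ppbp, Apoe, Laptm5, Rac2, F13a1, Cx3cr1 and Fcrls, and then by Csf1r, Ccl3, Aif1, Srgn, Stfa3, Gp9, Lcp1, Camp, Plek and Spi1. S100a8, S100a9, Stfa1, Stfa3 and Camp had a value in 2 libraries or 1 and came mainly from single cells. Apoe, the lipid carrier, had 1261 CPM in Dup and 1673 CPM in C57BL/6, 2775 CPM in Inv1 and 3665 CPM in G4 hindlimbs, and 1692 CPM in Inv1 and 6953 CPM in G4 forelimbs. Mrc1, the mannose receptor of resident macrophages, had 196 CPM in Dup and 318 CPM in C57BL/6, 720 CPM in Inv1 and 404 CPM in G4 hindlimbs, and 455 CPM in Inv1 and 2023 CPM in G4 forelimbs. The Dup and C57BL/6 libraries were the lowest for both. The 3 C1q genes were seen together, with 82 cells holding all 3, 55 none, 5 holding 1 and 9 holding 2, and the ratio of C1qa to C1qb UMIs stayed between 0.442 and 0.543 over the libraries.

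Signals made by the class were read in each cell class of the limb bud. Tgfb1, a growth factor of wide action, was at 187 to 379 CPM in immune cells over the libraries, 114.9 to 155 CPM in endothelial cells and at most 0.680 CPM in mesenchyme. Gas6, which bridges dying cells to the receptors Mertk and Axl, was at 42.7 to 569 CPM in immune cells, 16.4 to 32.4 CPM in endothelial cells and at most 1.12 CPM in mesenchyme. Igf1, a growth factor, was at 316 CPM in the G4 forelimb immune cells and at 20.6 to 97.8 CPM in the other libraries, with 7.67 to 89.5 CPM outside the class, and was not called. Csf1, the ligand of Csf1r, was at 10.5 CPM or less in every class read, and at 1.78 to 4.36 CPM in mesenchyme. Il34 had no row and was not analysed here.

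Mutant and wild-type immune cells were then set side by side for each limb and strain, across genes with a mean of 200 CPM or more over the pair, a pseudocount of 50 CPM and a fold of 2. In all immune cells of Dup over C57BL/6 hindlimbs, 5 of 770 genes were higher (0.649%) and 0 lower (0.00%). S100a9 (2311 against 72.7 CPM), BC100530 (938 against 4.16 CPM) and Cstdc4 (451 against 68.6 CPM) came to over 99% from 1 Dup cell, the calprotectin cell above, and S100a9 was at 3.02 CPM in the Dup cells without it. Ppbp (636 against 135 CPM) came from 2 cells of each library, and Prtn3, proteinase 3 of granules, had 510 CPM in 20 of 52 Dup cells and 170 CPM in 12 of 29 C57BL/6 cells. Of the 346 Dup UMIs of Prtn3, 152 lay in 1 cell (43.9%), and the ratio was 2.99 (2.34 to 3.85), but 1.72 (1.32 to 2.25) without that cell. The lower side came closest to the fold with C1qb (0.499), ENSMUSG00000098178 (0.547), Ptn (0.510), Maf (0.519) and Ctsc (0.536), none of them past it once the pseudocount was added. Maf is a macrophage factor and Ctsc a lysosomal protease, and macrophage-like cells held 53.7% of the immune UMIs in Dup and 68.3% in C57BL/6. Within macrophage-like cells the ratio of Maf was 0.635 (0.513 to 0.785) and that of Ctsc 0.581 (0.467 to 0.722).

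In macrophage-like cells alone, 2 of 764 genes were higher in Dup than in C57BL/6 (0.262%) and 5 lower (0.654%). None of these was past the fold in all immune cells, where 5 of 770 genes were higher (0.649%). Sets this small say little about overlap. Ccl4, an inflammatory chemokine, had 513 CPM (interval 442 to 591) in Dup, with UMIs in 16 of 28 cells, and 173 CPM (131 to 225) in C57BL/6, with UMIs in 10 of 20. The ratio was 2.96 (2.19 to 4.05), 2.81 without the cells that held mesenchyme markers and 2.12 without the Dup cell with most Ccl4. Its neighbour Ccl3 followed with 474 against 240 CPM (1.97, 1.504 to 2.61), and Ccl2 with 93.2 against 18.2 CPM (5.11, 2.12 to 14.9), both below the fold or the level of the rule. Ccl12 had 76.7 against 24.3 CPM, but a ratio of 0.920 (0.301 to 2.81) without 1 Dup cell. Jun, an immediate-early factor, had 581 CPM in 26 of 28 Dup cells and 274 CPM in 19 of 20 C57BL/6 cells, a ratio of 2.12 (1.65 to 2.75), and 1.68 (1.24 to 2.30) without the cells that held mesenchyme markers. With the pseudocount its log2 ratio was 0.96, under the fold. Atf3 had 181 against 73.0 CPM (2.48, 1.53 to 4.14), and its mean of 127 CPM was below the minimum of the rule. Mbnl1, an RNA splicing factor gene, had 474 against 268 CPM (1.77, 1.36 to 2.32) and was under the fold. Jun was higher in the Dup library outside the class as well, at 475 CPM in the other Dup cells and 242 CPM in the other C57BL/6 cells. Of 7 genes that dissociation induces, measured at a minimum lower than 200 CPM, 6 were higher in Dup. Their median log2 ratio was 0.49, against 0.00 over all 1585 genes measured that way, of which 802 were higher. In Inv1 over G4 hindlimbs 6 of 8 such genes were higher (median 0.28), with 718 of all 1509 genes (median -0.02). In forelimbs 2 of 11 were higher (median -0.65), with 906 of all 1681 genes (median 0.05). The part of these dissociation genes in the chemokine values was not tested.

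Single cells carried most of the other differences between Dup and C57BL/6. Ebf1, a gene of mesenchyme and of B cell precursors, had 351 CPM in Dup and 103 CPM in C57BL/6 macrophage-like cells, with 61.7% of the Dup UMIs in 1 cell. Without cells that held mesenchyme markers it was at 33.5 CPM in Dup and 0 CPM in C57BL/6. S100a8 and Stfa1 were at 0 UMIs in Dup and at 1317 and 733 CPM in C57BL/6, over 97% from 1 cell. Hmox1, haem oxygenase, had 35.6 CPM in Dup and 401 CPM in C57BL/6, with 86.4% of the C57BL/6 UMIs in 1 cell, and the ratio without that cell was 0.583 (0.263 to 1.26). Lyz2, lysozyme, had 285 CPM in 16 of 28 Dup cells and 782 CPM in 15 of 20 C57BL/6 cells, a ratio of 0.365 (0.288 to 0.460), and 0.686 (0.525 to 0.895) without 1 cell. Itm2a had 115.1 against 322 CPM, and a ratio of 0.840 (0.532 to 1.33) without 1 cell.

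**Figure D4:**
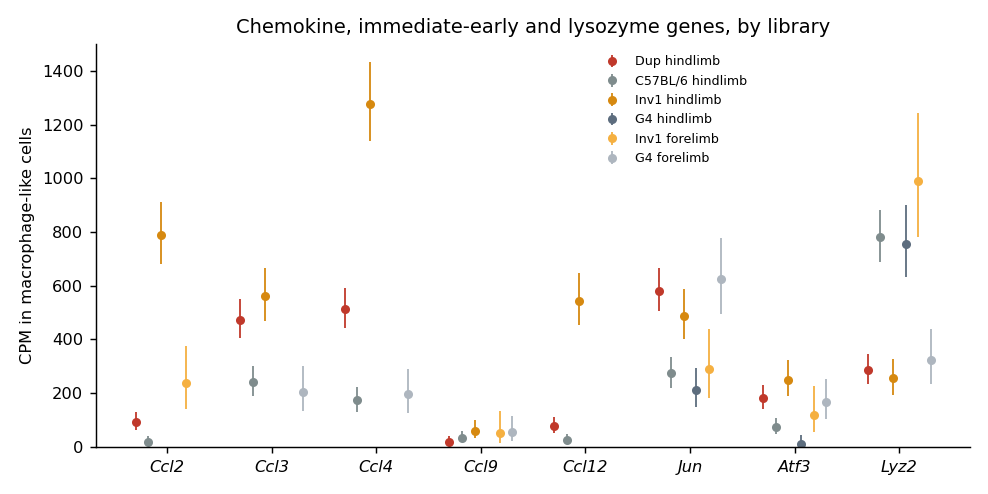
Levels in macrophage-like cells in CPM, 1 point per library with its exact 95% Poisson interval, in the order Dup and C57BL/6 hindlimb, Inv1 and G4 hindlimb, Inv1 and G4 forelimb. Dup lies above C57BL/6 for Ccl2, Ccl3, Ccl4, Ccl12, Jun and Atf3 and below it for Lyz2; libraries in which a gene had no UMI in any cell have no point.

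In hindlimbs of Inv1 over G4, 2 of 734 genes were higher in all immune cells (0.272%) and 7 lower (0.954%), and in macrophage-like cells 1 of 737 was higher (0.136%) and 2 lower (0.271%). Jun was the gene higher in macrophage-like cells, at 488 CPM in 18 of 19 Inv1 cells and 213 CPM in 13 of 14 G4 cells, a ratio of 2.29 (1.57 to 3.43), and 1.89 (1.27 to 2.86) without 1 cell. Outside the class Jun had 193 CPM in Inv1 and 146 CPM in G4. Atf3 had 251 CPM in 6 of 19 Inv1 cells and 11.8 CPM in 2 of 14 G4 cells, and 109.5 CPM in Inv1 without 1 cell. Lyz2 had 255 CPM in Inv1 and 757 CPM in G4 macrophage-like cells (0.337, 0.243 to 0.461), and 0.716 (0.489 to 1.05) without 1 G4 cell. Ifitm3, an interferon-induced gene, had 161 against 390 CPM (0.413, 0.270 to 0.625), and 0.743 (0.454 to 1.22) without 1 cell. Mrc1, among the markers that defined these cells, had 1032 CPM in Inv1 and 586 CPM in G4. Its ratio of 1.76 (1.39 to 2.25) stayed under the fold of 2. Other genes next to the fold did so as well. On the higher side these were Igfbp4, which encodes a binding protein of insulin-like growth factors (391 CPM in Inv1 and 189 CPM in G4, 2.06, 1.37 to 3.19), Zfp36l1, an mRNA decay factor gene (454 against 254 CPM, 1.79, 1.24 to 2.61), and ENSMUSG00000098557 (386 against 219 CPM, 1.77, 1.19 to 2.66). Without the cell with most UMIs the ratio of Zfp36l1 was 1.44 (0.979 to 2.13). On the lower side they were Sat1, a polyamine enzyme (361 against 716 CPM, 0.504, 0.378 to 0.671), Vim, vimentin (501 against 976 CPM, 0.513, 0.402 to 0.654), and Cd52, a leukocyte surface protein (544 against 1017 CPM, 0.534, 0.422 to 0.676).

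Chemokines stood high in the Inv1 hindlimb. Of 19 macrophage-like cells 18 had UMIs of Ccl2, Ccl3, Ccl4 or Ccl12, and 12 had 3 or all of the genes, with a summed level of 3172 CPM, or 2428 CPM without the cell with most. In Dup it was 19 of 28 cells and 1157 CPM, and in C57BL/6 18 of 20 cells and 456 CPM. None of these genes had a UMI in any cell of the G4 hindlimb, a library in which 595 of 15668 genes had no UMI at all and only 34 were seen in 1 to 5 cells, so they have no value there and no ratio for Inv1 can be given. Among Inv1 hindlimb macrophage-like cells Ccl4 was at 1278 CPM (1138 to 1431), Ccl2 at 790 CPM, Ccl3 at 561 CPM and Ccl12 at 544 CPM.

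In all immune cells of the hindlimb, several of the largest ratios came from a few cells. Ifitm1 had 1239 CPM in Inv1 and 28.6 CPM in G4, with 98.8% of the Inv1 UMIs in the 4 Cpa3 cells. Ppbp (211 against 1086 CPM), Rabgap1l (94.9 against 433 CPM) and Rasgrp2 (107 against 396 CPM) were lower in Inv1, where 2 cells were megakaryocyte-like, than in G4, where 3 were, and 73.2 to 92.1% of their G4 UMIs lay in 1 cell. Without the G4 cell with most UMIs of the gene, the ratio was 2.12 (1.29 to 3.64) for Ppbp, 1.004 (0.557 to 1.85) for Rabgap1l and 0.869 (0.510 to 1.499) for Rasgrp2. Jun had 403 against 155 CPM (2.60, 1.80 to 3.83) over all immune cells, Lyz2 202 against 567 CPM and Ifitm3 119 against 343 CPM. Igfbp4 (356 against 163 CPM, 2.18, 1.51 to 3.20), Zfp36l1 (347 against 179.6 CPM, 1.93, 1.35 to 2.80) and Manf, a gene of the endoplasmic reticulum stress response (537 against 294 CPM, 1.83, 1.38 to 2.43), were under the fold once the pseudocount was added.

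In forelimbs of Inv1 over G4, 53 of 718 genes were higher in all immune cells (7.38%) and 98 lower (13.6%), from 11 and 13 cells. The groups differed in makeup: 1 Inv1 megakaryocyte-like cell held 62826 of the 208574 UMIs (30.1%), 3 Cpa3 cells held 27.2%, and 6 macrophage-like cells 36.3%, whereas all 13 G4 cells were macrophage-like. With the G4 forelimb set to the floor of 3 UMIs, Ifitm1 was 110-fold higher in Inv1 (544 UMIs against 0). The lower limit of the ratio was 89.2, and 44.1 without the cell with most UMIs. Of these 544 UMIs, 539 lay in the 3 Cpa3 cells (99.1%), and Cpa3 had no value in the G4 libraries. Ifitm1 was also the only gene past 2-fold the same way in both limbs, of 624 genes measured in both. Ppbp (505 UMIs against 0) and Gp9 (180 UMIs against 0) came from the 1 megakaryocyte-like cell. Rasgrp2 and Tuba4a had 748 against 7.90 CPM each, with 99.4% and 96.8% of their Inv1 UMIs in 1 cell. Macrophage genes were among the lowest: Selenop (163 against 1193 CPM), Maf (417 against 2473 CPM), Abca1, a cholesterol exporter (139 against 940 CPM), and Gas6 (71.9 against 569 CPM). Spp1, osteopontin, had 62.3 CPM in Inv1 and 1177 CPM in G4, but 1 G4 cell held all 149 G4 UMIs.

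Within forelimb macrophage-like cells, 27 of 736 genes were higher in Inv1 than in G4 (3.67%) and 29 lower (3.94%), from 6 cells against 13. Selenop had 436 against 1193 CPM (0.366, 0.243 to 0.536) and had UMIs in 6 of 6 and 13 of 13 cells. P2ry6, a nucleotide receptor, had 132 against 419 CPM (0.316, 0.143 to 0.627), and Lsp1, a leukocyte actin-binding protein gene, had UMIs in 1 of 6 against 11 of 13 cells, with 79.3 against 332 CPM. Spp1 had 172 against 1177 CPM, the G4 UMIs again from 1 cell. Igf1 had 92.5 against 316 CPM (0.293, 0.111 to 0.661). Mdk (635 against 150 CPM), Id2 (357 against 79.0 CPM) and Lyz2 (991 against 324 CPM) were higher in Inv1, each with over 70% of its Inv1 UMIs in 1 cell, and Mdk and Lyz2 had ratios of 1.03 (0.429 to 2.34) and 1.12 (0.614 to 1.98) without that cell. The ratio of Id2 was then 1.45 (0.468 to 4.22). Snu13, a gene of a splicing and ribosomal RNA processing factor, had 344 against 94.8 CPM (3.63, 1.77 to 7.89), with UMIs in 6 of 6 and 8 of 13 cells, and a ratio of 2.78 (1.25 to 6.39) without the cell with most. Hnrnpa1, which encodes an RNA-binding protein, had 912 against 316 CPM (2.89, 1.93 to 4.37), with UMIs in 6 of 6 and 13 of 13 cells, and 2.90 (1.87 to 4.53) without the cell with most. Cells with mesenchyme markers were 2 of the 6 in Inv1 and 0 of 13 in G4, and without them Mdk was at 86.4 against 150 CPM, while the ratio was 2.73 (1.19 to 6.40) for Snu13 and 2.35 (1.49 to 3.71) for Hnrnpa1.

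Macrophage genes as groups are given for macrophage-like cells, at a minimum lower than 200 CPM. It measured 1585 genes in Dup over C57BL/6, and 1509 in hindlimbs and 1681 in forelimbs of Inv1 over G4. Among all genes 4 passed 2-fold higher and 5 lower in Dup, and 802 were higher at any fold. These counts were 6, 5 and 718 in Inv1 hindlimbs and 62, 67 and 906 in Inv1 forelimbs. The macrophage markers also defined these cells, so their levels within them are a description only. Of 8 macrophage markers measured in Dup and C57BL/6, 0 passed 2-fold, 1 was higher and the median log2 ratio was -0.39. Of 10 in Inv1 and G4 hindlimbs 0 passed, 6 were higher and the median was 0.02. In forelimbs 0 of 10 passed, 0 were higher and the median was -0.40. The 16 lysosomal genes had medians of -0.30, -0.21 and -0.62 in the same order of pairs, where all genes had 0.00, -0.02 and 0.05. With 6 to 28 cells per library and no replicate, shifts of this size have no error between embryos to be set against.

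The locus genes were measured last, since every cell of the mutants carries the alleles. Summed over Btrc, a ubiquitin ligase subunit, Poll, a DNA polymerase, Dpcd and Fbxw4, the immune cells had 159 UMIs (234 CPM) in Dup and 43 UMIs (89.4 CPM) in C57BL/6. The ratio was 2.62 (1.86 to 3.76), in macrophage-like cells 2.70 (1.76 to 4.27) and in mesenchyme 2.14 (2.03 to 2.25), and the intervals of both immune ratios held 2, the ratio of gene copies. The annotated ends of Dpcd and Fbxw4 overlap, so their UMIs may be shared. Fbxw4 had 28 UMIs in Dup and 4 in C57BL/6 (4.96, 1.74 to 19.5), and Dpcd 90 and 28 (2.28, 1.48 to 3.62). Lbx1, a factor of migrating muscle precursors, had 4 UMIs in Dup and 2 in C57BL/6, and Fgf8, the growth factor of the apical ectodermal ridge, 1 and 5, so no difference was detectable at this depth.

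**Figure D5:**
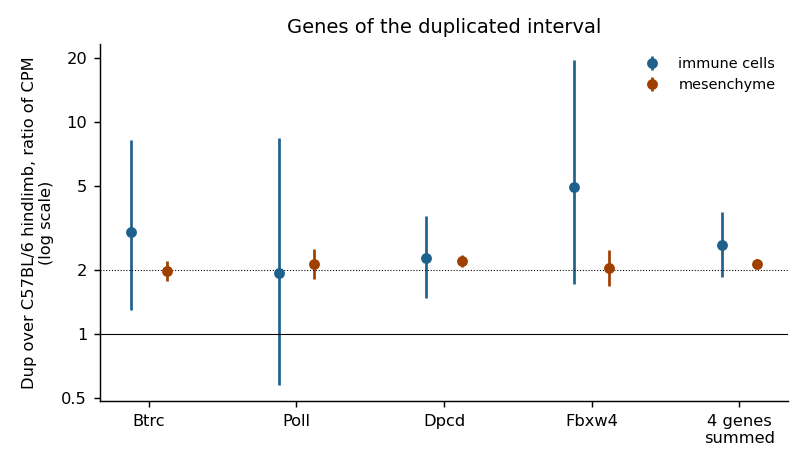
Ratio of Dup over C57BL/6 hindlimb CPM on a log axis for genes of the duplicated interval, in immune cells and in mesenchyme, with exact 95% intervals. The summed ratio is 2.62 in immune cells and 2.14 in mesenchyme, and the dotted line is the ratio of 2 that the copy number gives.

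Fbxw4 in Inv1 could not be resolved in the class, with 2 UMIs in Inv1 and 2 in G4 hindlimb immune cells, and 0 in Inv1 and 4 in G4 forelimb immune cells (ratio 0, upper limit 0.919). In mesenchyme of the same libraries the ratio was 0.0432 in hindlimbs and 0.0334 in forelimbs. Limb identity genes were read in the same cells. Pitx1 of the hindlimb and Tbx5 of the forelimb were low in immune cells, at 16.3 to 108 CPM of Pitx1 in hindlimbs and at most 14.4 CPM of Tbx5 in forelimbs, and mesenchyme had 216 to 333 CPM of Pitx1 in hindlimbs. Xist was at 200 CPM in Dup and 339 CPM in C57BL/6 immune cells, and Eif2s3y, a Y-linked gene, at 44.2 and 47.8 CPM, so both libraries held transcripts of both sexes.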

How the data were processed

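Single-cell libraries of E11.5 limb buds (6, 1 per group) were used as deposited UMI counts, which the authors made with Cell Ranger 3 on a custom mm9 reference. The authors kept cells with over 2000 genes and few mitochondrial UMIs, removed doublets by Scrublet score and took cell classes from clusters of the integrated libraries. No doublets were called here. Tables were joined on 15668 shared gene IDs, of which 14534 matched a symbol. A gene with no UMI in any cell of a library was given no value there, since the tables hold almost no genes seen in a few cells of some libraries. Of 261 genes in 34 lists, 46 had no row and were not analysed here. Some list members are not reported here.

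CPM were computed over summed cells, with exact Poisson intervals for levels, Clopper-Pearson intervals for shares and conditional binomial intervals for ratios (95%). Calls against the rest used a minimum of 20 CPM and a fold of 4 between mean levels, without a pseudocount. The log2 ratios over the rest, and the ranking by them, used a pseudocount of 5 CPM. Between libraries a minimum of 200 CPM, a pseudocount of 50 CPM and a fold of 2 were used. Medians of gene lists between libraries used a lower minimum. Macrophage-like and megakaryocyte-like cells had 3 or more markers of their list, and cells with 4 of 7 mesenchyme markers were tracked. The floor was 3 UMIs. The text names the 30 genes with the highest ratio over the rest, and in each pair the 5 highest and 5 lowest ratios, with list members. Members and lists were chosen with earlier results of these data known. Scripts were tested on simulated data. The tools were Python 3.11.15, numpy 2.4.6, scipy 1.17.1, pandas 2.3.3 and matplotlib 3.10.9. A further 17 columns of per-sample values and a second hindlimb matrix without gene IDs were not used. Alternatives were other minimums, folds, scalings, cell limits and cell subsets.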

Additional observations from a re-analysis of the deposited data

Results flagged for a closer look

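For 6 genes the ratio of Inv1 over G4 in all immune cells went past 2-fold in opposite directions in hindlimbs and forelimbs. These differences were not tested, since each limb has 1 library per genotype. The log2 ratio in forelimbs minus that in hindlimbs was 7.75 for Ppbp, 5.29 for Rasgrp2, 4.98 for Tuba4a, 4.88 for Rabgap1l and 3.91 for Tmem14c. Ppbp, Rasgrp2, Tuba4a and Rabgap1l were among the leading genes of megakaryocyte-like cells, of which the hindlimbs held 2 in Inv1 and 3 in G4, and the forelimbs 1 in Inv1 and 0 in G4. Jun differed the other way, by -2.34, with 403 CPM in Inv1 and 155 CPM in G4 hindlimbs, and 245 CPM in Inv1 and 624 CPM in G4 forelimbs. The macrophage-like cells had Jun at 488 and 213 CPM in Inv1 and G4 hindlimbs, and at 291 and 624 CPM in Inv1 and G4 forelimbs.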

How the results depend on the processing

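Of 66 recomputed values 53 stayed within their limits and 13 moved. The share of immune cells in Dup over C57BL/6 was 0.868, and 1.86 among cells with over 3000 genes. At 2-fold in place of 4-fold over the rest, 1270 genes were called in place of 730, which follows from the lower threshold. With 2 granulocyte markers in place of 3, 12 cells were counted in place of 3. Of genes past 2-fold in Dup over C57BL/6 the number was 5, with 11 at a minimum of 100 CPM, 13 at no minimum and 13 without cells that held mesenchyme markers, where 8 were higher and 5 lower. In Inv1 over G4 hindlimbs it was 9, with 16 at a minimum of 100 CPM, 39 at no minimum and 3 in macrophage-like cells. In Inv1 over G4 forelimbs it was 151, with 299 at a minimum of 100 CPM, 569 at no minimum, 81 with a mean over cells and 56 in macrophage-like cells. The lower minimums tested more genes. Otherwise the cause was not tested. Macrophage-like cells only, zeros kept as levels, the cell with most UMIs left out and, for shares and between libraries, cells without mesenchyme markers were chosen after seeing the data. Against the rest, cells without mesenchyme markers gave 790 genes. No paired analysis was possible because each group had 1 library. With 6 to 28 macrophage-like cells per library, single cells decide many values, and no interval here covers differences between embryos.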
